A study of Mus musculus with 8 samples.

Results

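Glutathione transferases join glutathione to reactive, mostly hydrophobic molecules, so that drugs, carcinogens and products of lipid oxidation can be exported from the cell and excreted. The cytosolic enzymes fall into classes by sequence, work as dimers, and the alpha and mu classes are among the most abundant of them in hepatocytes. In rodent liver, genes of both classes are known to respond to xenobiotic receptors such as CAR, PXR and AHR and to the oxidative stress factor NRF2, and some differ between the sexes. The 4 alpha class genes Gsta1, Gsta2, Gsta3 and Gsta4 and the 6 mu class genes Gstm1, Gstm2, Gstm3, Gstm4, Gstm6 and Gstm7 were taken by symbol from the 49671 genes of the count table. These are 10 of 49671 genes.

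RNA-seq was run on whole liver of C57BL/6 mice (C57BL/6N in the methods of the study) described as post weaning, in 4 groups of 2 libraries, WT and NT-KO of each sex. The NT-KO mice are homozygous for a germline CRISPR/Cas9 deletion at the start of the coding sequence of Lbr, which encodes a protein of the inner nuclear membrane, so the deletion is present in every cell type and not only in hepatocytes. WT mice lack this deletion, and the labels name no drug or inducer for any group. The labels give each library as a sample of its own but do not state that each came from a separate animal, so the p-values measure the spread between these samples. Read counts per library summed to 61202769 and 45020377 for the WT males, 50612282 and 53127151 for the NT-KO males, 51983144 and 64396291 for the WT females and 54424067 and 63590534 for the NT-KO females. Levels are given as CPM, counts scaled to a common library size, with library sizes adjusted by TMM (trimmed mean of M values), and a single read corresponded to 0.0147 to 0.0236 CPM, depending on the library.

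The labels were checked first. Lbr, counted over the whole gene, stood at 7.99 and 6.54 CPM in the WT males, 12.8 and 13.6 in the NT-KO males, 7.43 and 6.96 in the WT females and 13.1 and 14 in the NT-KO females. Both NT-KO libraries lay above both WT libraries in each sex, and these counts include the part of Lbr outside the deletion, so they do not show the loss of the N-terminus. Xist, the RNA that silences the second X chromosome, stood at 787.6 to 967 CPM in the 4 female libraries and at 0.723 to 3.21 CPM in the 4 male libraries. Of the genes on the Y chromosome, Uty, Kdm5d, Ddx3y and Eif2s3y stood at 12.3 to 58.7 CPM in males and at no more than 0.153 CPM in females. Alb, which encodes serum albumin, was the most abundant hepatocyte marker of these liver libraries, with a mean of 69661 CPM.

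The members lie in 3 places in the GRCm38 genome. Gsta4 (chr9:78182774-78209349, plus strand), Gsta1 (chr9:78230656-78242684, plus strand) and Gsta2 (chr9:78331018-78355788, minus strand) lie close together on chromosome 9, while Gsta3 (chr1:21240589-21265661, plus strand) is on chromosome 1. The 6 mu members form a cluster on the minus strand of chromosome 3, with Gstm7 (chr3:107926334-107931817), Gstm6 (chr3:107938847-107943749), Gstm3 (chr3:107963696-107969283), Gstm2 (chr3:107981702-107986453), Gstm1 (chr3:108012255-108017973) and Gstm4 (chr3:108040408-108044894) in that order. All 6 mu members encode 218 codons before the stop, and the alpha members 221 to 223.

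The first 60 coding bases of the alpha members are shown because they make visible how near Gsta1 and Gsta2 are, with capitals where a base differs from Gsta1. They come from the principal coding transcript of each gene in GENCODE M21 (GRCm38).
Gsta1: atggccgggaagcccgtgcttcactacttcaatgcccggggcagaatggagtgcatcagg
Gsta2: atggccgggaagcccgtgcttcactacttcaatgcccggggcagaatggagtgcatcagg
Gsta3: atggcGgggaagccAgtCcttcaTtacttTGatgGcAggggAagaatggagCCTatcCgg
Gsta4: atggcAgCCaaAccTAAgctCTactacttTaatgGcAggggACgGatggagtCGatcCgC
Gsta1 and Gsta2 have the same 60 bases, and their longest common run in the coding sequence is 196 bases. Over the whole coding sequence the pair is 97.5% identical, whereas the other 5 alpha pairs are 65.5% to 74.6% identical. Gsta3 differs from Gsta1 at 13 of these 60 bases and Gsta4 at 19.

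The same window of the mu members, with capitals where a base differs from Gstm1, shows changes spread over the window in every other member.
Gstm1: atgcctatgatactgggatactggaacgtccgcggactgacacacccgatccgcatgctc
Gstm3: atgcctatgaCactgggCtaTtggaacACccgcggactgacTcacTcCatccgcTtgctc
Gstm2: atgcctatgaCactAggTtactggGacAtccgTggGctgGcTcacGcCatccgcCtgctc
Gstm4: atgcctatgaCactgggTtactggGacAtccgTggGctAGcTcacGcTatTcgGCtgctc
Gstm6: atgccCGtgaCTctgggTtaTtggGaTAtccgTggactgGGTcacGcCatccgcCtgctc
Gstm7: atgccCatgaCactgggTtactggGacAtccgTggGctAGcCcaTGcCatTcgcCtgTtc
Gstm3 is nearest to Gstm1, with 9 differences here and 89.5% identity over the coding sequence. The 15 mu pairs are 79.1% to 89.5% identical (median 82.6%), the 6 alpha pairs have a median of 69.8%, and the 24 pairs of an alpha with a mu member lie between 44.6% and 48.6%.

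The near-identity bears on the counts. Of the 50-base stretches in the annotated transcripts of Gsta1, 90.5% also occur in another gene, mostly the predicted gene Gm3776 (75.7%) and Gsta2 (46.6%), and of those of Gsta2 49.8% do. The share is 28.8% for Gstm3, 18.9% for Gstm1, 5.97% for Gstm6, 5.65% for Gstm2, 0.532% for Gstm7 and 0.273% for Gsta3, and it is 0 for Gsta4 and Gstm4. How reads that match several genes were counted is not given in the sources used here, so the values of Gsta1 and Gsta2, and less so those of Gstm3 and Gstm1, are uncertain.

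Gsta3 and Gstm1 took most of the counts of the 10 genes. Gsta3, the main alpha enzyme of mouse liver and known for its activity against aflatoxin epoxide, stood at 1609 and 1418 CPM in the WT males, 1626 and 1883 in the NT-KO males, 1319 and 1772 in the WT females and 1509.9 and 1829.7 in the NT-KO females. Its highest library was 1.43 times its lowest, the narrowest range of the 10 members. Gstm1, a major mu enzyme of mouse liver, stood at 1165 and 686 CPM in the WT males, 1309 and 932 in the NT-KO males, 975 and 1389 in the WT females and 1178 and 1144 in the NT-KO females. Male WT replicate 2 held the lowest value of Gstm1, and the groups overlapped.

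Counts favour long genes, so levels of different genes were compared per kb of exon, taken as the union of all annotated exons. On this scale Gstm1 averaged 745 CPM per kb over the 8 libraries and Gsta3 373 CPM per kb, with Gstm1 above Gsta3 in 8 of 8 libraries. Their order depends on the length used. The annotated exons of Gsta3 span 4344 bases, but its principal coding transcript has 1457 bases, and with the length of the principal transcript Gsta3 averaged 1112 and Gstm1 851 CPM per kb. Below these came Gsta4 at 45.7, Gstm6 at 41.9, Gstm2 at 39.8, Gstm3 at 25.4, Gstm7 at 22.0, Gstm4 at 21.9 and Gsta2 at 20.9 CPM per kb of exon. Each of these 7 genes overlapped in its range over the libraries with its neighbour in this order, so the order within them was not separated by the spread. Gsta1 was last, at 1.99 CPM per kb, with its range wholly below that of Gsta2. As 90.5% of its 50-base stretches occur in another gene, against 49.8% for Gsta2, this gap may depend on how shared reads were counted.

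Summed per kb of exon, the alpha class stood at 426 and 355 CPM per kb in the WT males, 462 and 482 in the NT-KO males, 356 and 498 in the WT females and 428 and 525 in the NT-KO females. The mu class stood at 949 and 571 CPM per kb in the WT males, 986 and 811 in the NT-KO males, 806 and 1135 in the WT females and 970.1 and 937 in the NT-KO females. The mu class was the larger sum in every library and made up 61.6% to 69.5% of the 10 genes together, but with the principal transcript length the group means of the alpha and mu classes were 1094 and 896 CPM per kb in male WT and 1154 and 1153 in female WT, so which class is larger is set by the length chosen. Gstm1 supplied 78.0% to 90.1% of the mu sum and Gsta3 80.2% to 91.8% of the alpha sum on the exon scale. The 10 genes together took 0.218% to 0.38% of all counts, lowest in male WT replicate 2 and highest in female WT replicate 2.

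**Figure D1:**
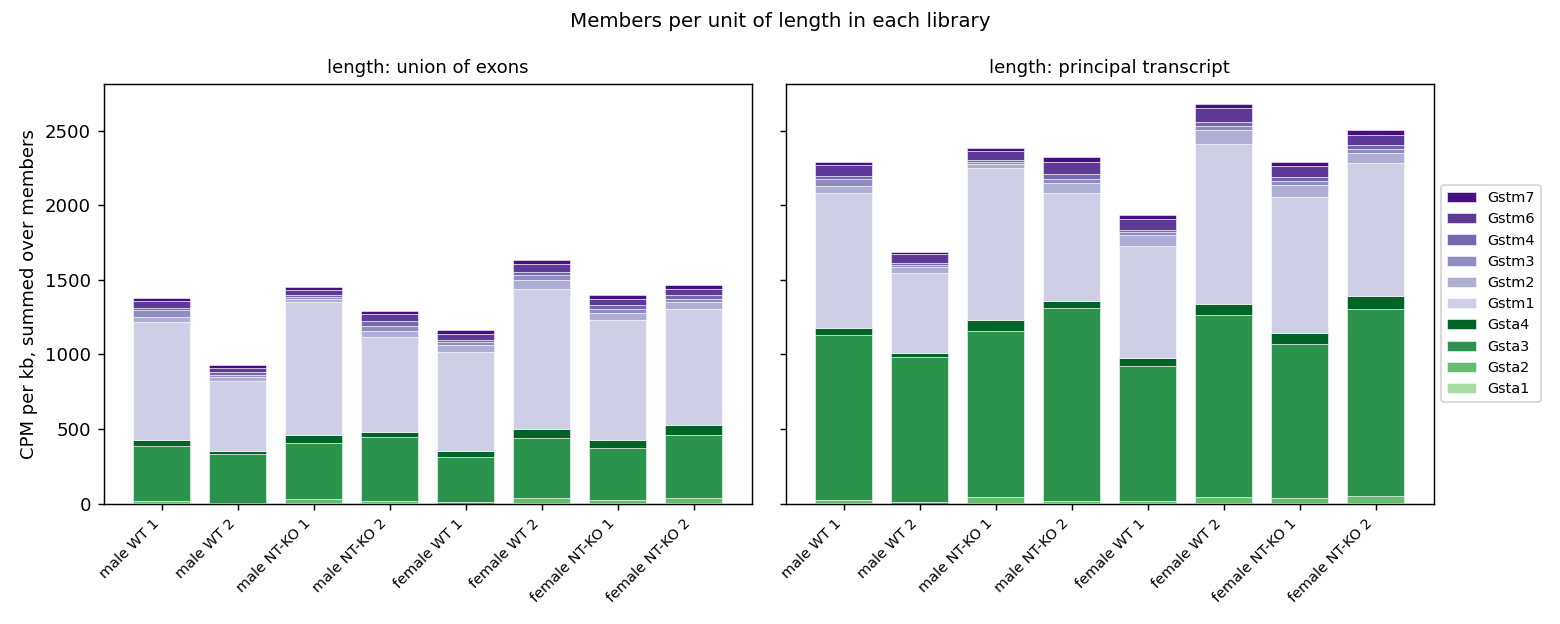
Stacked bars of CPM per kb for the 10 members (y axis) in each of the 8 libraries (x axis), with the union of exons as length on the left and the principal transcript on the right, alpha members in greens and mu members in purples. Gsta3 and Gstm1 make up most of every bar, and Gstm1 is the taller of the pair on the left in all 8 libraries.

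The first comparison asked whether the members differ between NT-KO and WT in males. All 4 alpha members had a higher fitted mean in NT-KO, with a median log2 fold change of 0.70 led by Gsta1 and Gsta2, and 5 of 6 mu members did, with a median of 0.18, beside a median of 0.012 and 51.6% higher among all tested genes. None of these differences passed the test against the spread between replicates. In edgeR's quasi-likelihood test 0 of 10 members passed a false discovery rate (FDR, Benjamini-Hochberg over all 13117 tested genes) of 0.05, 0 had an unadjusted p under 0.05 beside 11.5% of all tested genes, and the likelihood ratio test and DESeq2 also called 0, while the quasi-likelihood test called 2 (Gsta1 and Gsta2) with no filter on low counts. Of all tested genes 0.0152% passed that FDR in the quasi-likelihood test with the filter, and the share with no filter is not given here.

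Gsta1, which encodes an alpha enzyme with low basal expression known to be inducible, had the largest fitted difference. It stood at 1.8 and 0.59 CPM in the WT males, 2.4 and 3.43 in the NT-KO males, 0.677 and 2.01 in the WT females and 1.86 and 2.46 in the NT-KO females. Both male NT-KO libraries lay above both male WT libraries, and the log2 fold change in males was 1.27 ± 0.60 (SE, n = 2 per group, edgeR's quasi-likelihood FDR 0.469). Gsta2, its near-identical neighbour, stood at 19.3 and 7.76 CPM in the WT males, 33.6 and 13.7 in the NT-KO males, 13.3 and 38.6 in the WT females and 29.9 and 40.7 in the NT-KO females. The 2 male groups overlapped, since male NT-KO replicate 2 lay below male WT replicate 1, and the log2 fold change was 0.81 ± 0.61 (FDR 0.661, edgeR). Leaving out male NT-KO replicate 1 gave 0.02, and leaving out male WT replicate 1 gave 1.60. With the counts of Gsta1 and Gsta2 added together before the fit, the log2 fold change in males was 0.85 ± 0.588 (FDR 0.624, edgeR).

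Gsta4, which acts on 4-hydroxynonenal and other aldehydes of lipid peroxidation, stood at 47.8 and 27.6 CPM in the WT males, 71.4 and 42.6 in the NT-KO males, 50.6 and 70.1 in the WT females and 67.4 and 84.8 in the NT-KO females. Its log2 fold change in males was 0.59 ± 0.33 (FDR 0.533, edgeR), with overlap between the groups, and it ran from 0.18 without male NT-KO replicate 1 to 1.04 without male WT replicate 1. Gsta3 was higher in both male NT-KO than in both male WT libraries, but by a log2 fold change of only 0.21 ± 0.223 (FDR 0.767, edgeR), which ran from 0.10 to 0.32 with 1 library left out. Gsta1 and Gsta3 were the 2 members whose male NT-KO libraries lay wholly above the WT libraries, while 19.6% of all tested genes did so, and 0 members lay wholly below, while 19.2% of all tested genes did.

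Among the mu members the male NT-KO libraries disagreed with each other. Gstm4 stood at 31.7 and 23.8 CPM in the WT males, 25.8 and 57.2 in the NT-KO males, 29.9 and 45 in the WT females and 41.9 and 44.1 in the NT-KO females. Its log2 fold change in males, 0.58 ± 0.358 (FDR 0.577, edgeR), rested on NT-KO replicate 2, and without that library it was -0.11. Gstm3 stood at 60 and 24.6 CPM in the WT males, 19.9 and 37.5 in the NT-KO males, 22.9 and 39.8 in the WT females and 32.2 and 29.3 in the NT-KO females. Its log2 fold change in males was -0.56 ± 0.453 (FDR 0.68, edgeR), the only negative one of the 10, and it became 0.22 without male WT replicate 1. Gstm1, Gstm2, Gstm6 and Gstm7 had log2 fold changes of 0.28, 0.09, 0.13 and 0.22 in males, each less than its SE.

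In females 0 of 10 members passed the FDR in edgeR's quasi-likelihood test, 0 had an unadjusted p under 0.05 beside 1.55% of all tested genes, and the likelihood ratio test and DESeq2 called 0. Of all tested genes 0.00762% passed, which is 1 gene. The 4 alpha members again had higher means in NT-KO (median log2 fold change 0.39), while 2 of 6 mu members did (median -0.03), beside 50.3% of all tested genes. The largest value was that of Gsta1, at 0.67 ± 0.59 (SE, FDR 1, edgeR), followed by Gsta2 at 0.44 ± 0.603 and Gsta4 at 0.33 ± 0.328. With 1 library left out, Gsta1 ran from 0.10 to 1.67, Gsta2 from -0.13 to 1.41, Gsta3 from -0.09 to 0.34 and Gsta4 from 0.12 to 0.59, each lowest without female WT replicate 1 and highest without replicate 2 of that group. In 0 of 10 members did the female genotypes separate without overlap, while 12.2% of all tested genes lay above and 14.2% below. For Gsta3 the 95% interval of the log2 fold change in females, -0.40 to 0.62, and for Gstm6, -0.66 to 0.38, are the range of changes that these data leave for them. For Gsta1 the interval was wider, from -0.68 to 2.03, so a change anywhere in that range could not be told from none.

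The difference between the sexes in the NT-KO effect was tested as an interaction. In edgeR's quasi-likelihood test 0 of 10 members passed the FDR, 0 had an unadjusted p under 0.05 beside 7.2% of all tested genes, and the likelihood ratio test and DESeq2 called 0, while 0.0152% of all tested genes passed. The interaction estimates were negative for 9 of 10 members, meaning a lower log2 fold change of NT-KO against WT in females than in males, while 48.8% of all tested genes had a positive one. They ranged from -0.59 ± 0.837 for Gsta1 to 0.53 ± 0.639 for Gstm3 (FDR 0.865 to 0.961, edgeR, over the 10 members). The pi class gene Gstp3, by contrast, passed the same test, with an interaction of -5.44 ± 0.411 (FDR 0.00543, edgeR). It stood at 16.7 and 10.9 CPM in the WT males, 659.7 and 411 in the NT-KO males, 26.3 and 27 in the WT females and 24.9 and 22.8 in the NT-KO females, and its male log2 fold change was 5.28 ± 0.326 (FDR 0.00223, edgeR). It was the only one of 13 tested transferases of other classes past the FDR for NT-KO in either sex. Of these 13, 9 were higher and 4 lower in male NT-KO (median log2 fold change 0.37). In males 5, Gstp3 among them, had an unadjusted p under 0.05 (edgeR), beside 11.5% of all tested genes, and in females 0 had one.

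**Figure D2:**
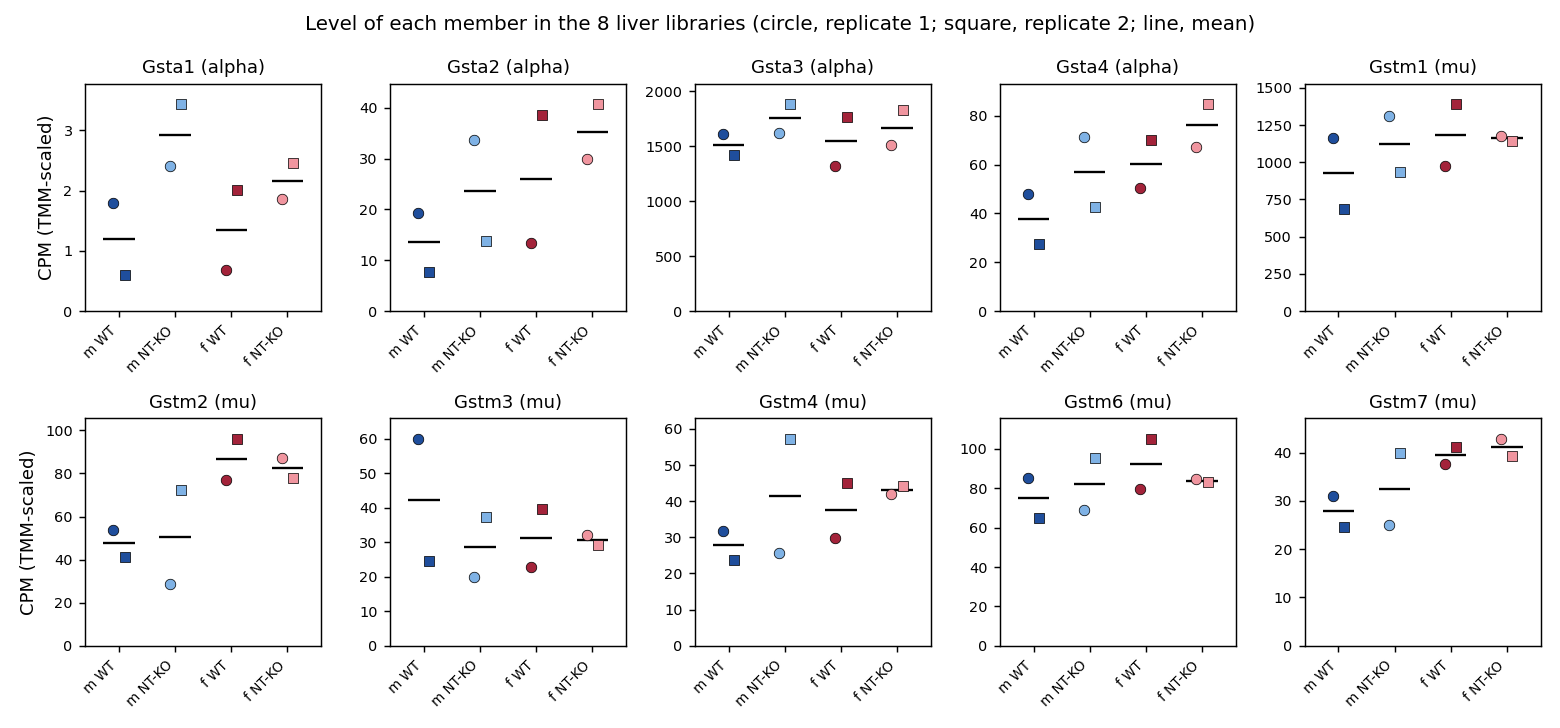
CPM of each member (y axis, from 0, own scale per panel) in the 4 groups (x axis; m, male; f, female), with a circle for replicate 1, a square for replicate 2 and a line for the mean of both. The symbols of a group are often as far apart as the groups are, as in Gsta2 of female WT (13.3 and 38.6 CPM), and Gstm2 has all 4 female values above all 4 male values.

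Replicates of the WT groups differed in the same direction across the members. In male WT, replicate 1 was higher than replicate 2 for 10 of 10 members. In female WT, replicate 2 was higher for 10 of 10. In male NT-KO, replicate 2 was higher for Gsta1, Gsta3 and the 5 mu members other than Gstm1, and replicate 1 for Gsta2, Gsta4 and Gstm1, while in female NT-KO replicate 2 was higher for 5 of 10. The largest fold between replicates of a group was 3.05 among the WT males, 2.54 among the NT-KO males, 2.97 among the WT females and 1.36 among the NT-KO females. Male WT replicate 2 was the lowest of all 8 libraries for 7 members, namely Gsta1, Gsta2, Gsta4, Gstm1, Gstm4, Gstm6 and Gstm7.

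Male WT replicate 2 also stood apart in other genes. The 19 ER chaperone genes summed to 5212 and 10647 CPM in the WT males, 3287 and 3534 in the NT-KO males, 3929 and 3269.9 in the WT females and 3308 and 3352 in the NT-KO females. In the male comparison 18 of 19 were lower in NT-KO (median log2 fold change -1.04), with 0 past the FDR and 15 with an unadjusted p under 0.05 (edgeR). Hspa5, the ER chaperone also called BiP and the most abundant of this list, stood at 898 and 2590.4 CPM in the WT males, 336 and 521 in the NT-KO males, 538 and 402 in the WT females and 421 and 458 in the NT-KO females, highest in male WT replicate 2. The erythroid and neutrophil markers, led by the globin gene Hbb-bs, summed to 949 and 452 CPM in the WT males, 375 and 375 in the NT-KO males, 188 and 182 in the WT females and 321 and 173 in the NT-KO females, highest in male WT replicate 1, with Ly6g at 3 counts or fewer in every library. In male NT-KO 7 of 8 Kupffer cell and macrophage markers (median log2 fold change 0.30) and 7 of 8 endothelial markers (0.22) were higher. In both lists 0 passed the FDR (edgeR). The part of these differences in the male values of the members was not tested. Without male WT replicate 2 the number of members past the FDR stayed at 0 for the male comparison, and the log2 fold change of Gsta1 in males was then 0.70, while without male WT replicate 1 it was 2.30.

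**Figure D3:**
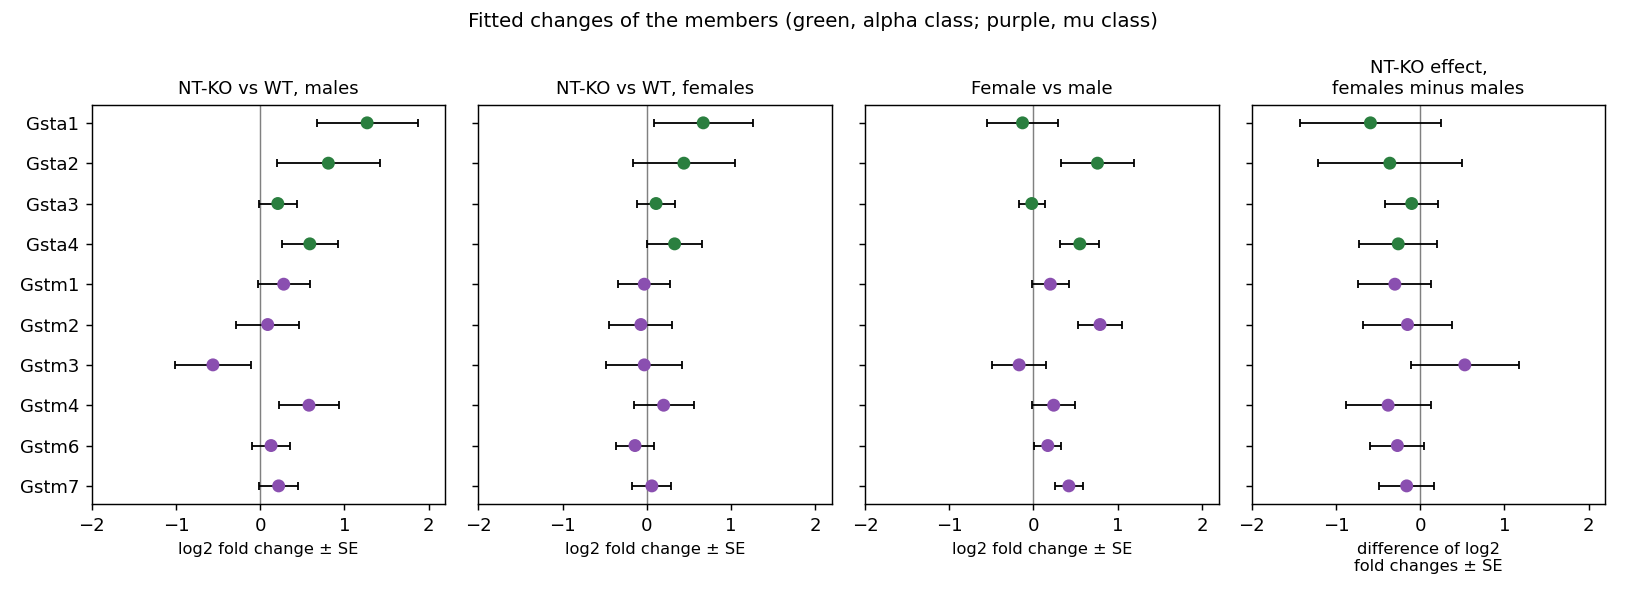
Fitted log2 fold changes of the 10 members (x axis, with SE as bars) in the 4 comparisons, alpha members in green and mu members in purple. The alpha members lie right of 0 in both genotype panels, yet in neither does any member pass the FDR, and the SE of Gsta1 and Gsta2 are the widest.

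The comparison of females with males, over both genotypes, had 4 libraries on each side. Gstm2 was higher in all female libraries, Gstm7 and Gsta4 had higher female means with overlap, and the abundant Gsta3 and Gstm1 lay close between the sexes. In edgeR's quasi-likelihood test 0 of 10 members passed the FDR, 3 had an unadjusted p under 0.05 (Gstm2, Gstm7 and Gsta4) beside 26.9% of all tested genes, and the likelihood ratio test and DESeq2 each called 1, Gstm2. With no filter on low counts the quasi-likelihood test called 3 (Gstm2, Gsta2 and Gsta4). Of all tested genes 7.84% passed this FDR in the quasi-likelihood test with the filter. The shares for the likelihood ratio test, DESeq2 and no filter are not given here. Females had the higher mean for 2 of 4 alpha members (median log2 fold change 0.26) and for 5 of 6 mu members (median 0.22), beside 48.9% of all tested genes.

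Gstm2, a mu enzyme encoded between Gstm3 and Gstm1, had the largest fitted sex difference of the 10 members over both genotypes. It stood at 53.8 and 41.3 CPM in the WT males, 28.5 and 72.4 in the NT-KO males, 77.1 and 96 in the WT females and 87.2 and 77.8 in the NT-KO females. All 4 female libraries lay above all 4 male libraries, and the nearest values were 77.1 CPM in female WT and 72.4 CPM in male NT-KO replicate 2. The log2 fold change was 0.79 ± 0.266 (SE, n = 4 per sex, FDR 0.109, edgeR's quasi-likelihood test), and the exact two-sided permutation test of its log2 CPM over the 8 libraries gave p = 0.0286, the smallest p that 4 against 4 allows, which follows from the lack of overlap and is not adjusted over the 10 members. The FDR was 0.0414 in the likelihood ratio test, 0.0159 in DESeq2 and 0.00656 in the quasi-likelihood test without male NT-KO replicate 2, where the log2 fold change rose to 1.20, while without male NT-KO replicate 1 it was 0.53 with an FDR of 0.0747. Over all alternatives the FDR of Gstm2 ran from 1.74e-05 with no filter on low counts to 0.642 within NT-KO (edgeR at both ends). Within WT the log2 fold change was 0.86 and within NT-KO 0.71. That of Gsta2 was 0.76 over both genotypes, 0.94 within WT and 0.58 within NT-KO, so Gsta2 ranked above Gstm2 within WT. Gstm2 was the only member whose sexes did not overlap, while 8.5% of all tested genes lay wholly higher and 7.6% wholly lower in females.

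Gstm7, the mu member at the far end of the cluster, stood at 31 and 24.6 CPM in the WT males, 25 and 40 in the NT-KO males, 37.7 and 41.2 in the WT females and 42.8 and 39.4 in the NT-KO females. Male NT-KO replicate 2, at 40.0 CPM, lay among the female libraries, and the other 3 male libraries lay below all of them. The log2 fold change of females against males was 0.42 ± 0.163 (FDR 0.147, edgeR), with an exact permutation p of 0.0857. Without male NT-KO replicate 2 it was 0.61 with an FDR of 0.0419 (edgeR), and leaving out replicate 1 of that group gave 0.27 with an FDR of 0.209. Its FDR ran from 0.0419 to 0.778 over all alternatives (edgeR at both ends). Gsta4 had a log2 fold change of 0.55 ± 0.233 (FDR 0.177, edgeR) and an exact permutation p of 0.143. Its FDR ran from 0.00693 with no filter on low counts to 0.82 within NT-KO over all alternatives (edgeR at both ends). Its highest male library, NT-KO replicate 1, overlapped with the females.

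The abundant members showed smaller sex differences. Gstm1 had a log2 fold change of 0.20 ± 0.217 (FDR 0.591, edgeR) and Gsta3 of -0.02 ± 0.157 (FDR 0.947, edgeR), with a 95% interval for Gsta3 of -0.38 to 0.34. Gsta2 had a larger but less certain one, 0.76 ± 0.43 (FDR 0.298, edgeR), which was 0.28 without female WT replicate 2 and 1.16 when male WT replicate 1 was left out. Gsta1 stood at -0.13, Gstm3 at -0.17, Gstm4 at 0.24 and Gstm6 at 0.17, with FDR from 0.549 to 0.873 (edgeR). With 1 library left out, Gstm1 ran from 0.04 to 0.42, Gstm4 from 0.01 to 0.58 and Gstm6 from 0.06 to 0.29. Gstm6 stood at 85.2 and 64.8 CPM in the WT males, 68.9 and 95.5 in the NT-KO males, 79.9 and 105 in the WT females and 84.5 and 83.3 in the NT-KO females, and its sexes overlapped.

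Several transferases of other classes differed between the sexes. Of 16 listed genes 13 were tested, and of these 5 rose and 3 fell in females at the FDR of 0.05. The pi class genes Gstp1, Gstp2 and Gstp3 fell, with log2 fold changes of -3.93, -4.29 and -1.77. The value of Gstp3 rested on the NT-KO males, and within WT both female libraries (26.3 and 27.0 CPM) lay above both male libraries (16.7 and 10.9 CPM). Gstp1 stood at 1343 and 1457 CPM in the WT males, 1486 and 570.4 in the NT-KO males, 78.1 and 79 in the WT females and 86.1 and 71.8 in the NT-KO females. The theta class genes Gstt1, Gstt2 and Gstt3 rose by 0.75, 1.15 and 2.35, the mitochondrial and peroxisomal Gstk1 by 0.50 and the membrane-bound Mgst3 by 1.52 (all on the log2 scale, FDR from 0.0002 to 0.0395, edgeR). Gsto1, Gstz1, Hpgds, Gstcd and Mgst1 did not pass, with log2 fold changes of 0.57, 0.17, 0.43, 0.09 and -0.45. Whether the alpha and mu members as a set differ from these was not tested.

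**Figure D4:**
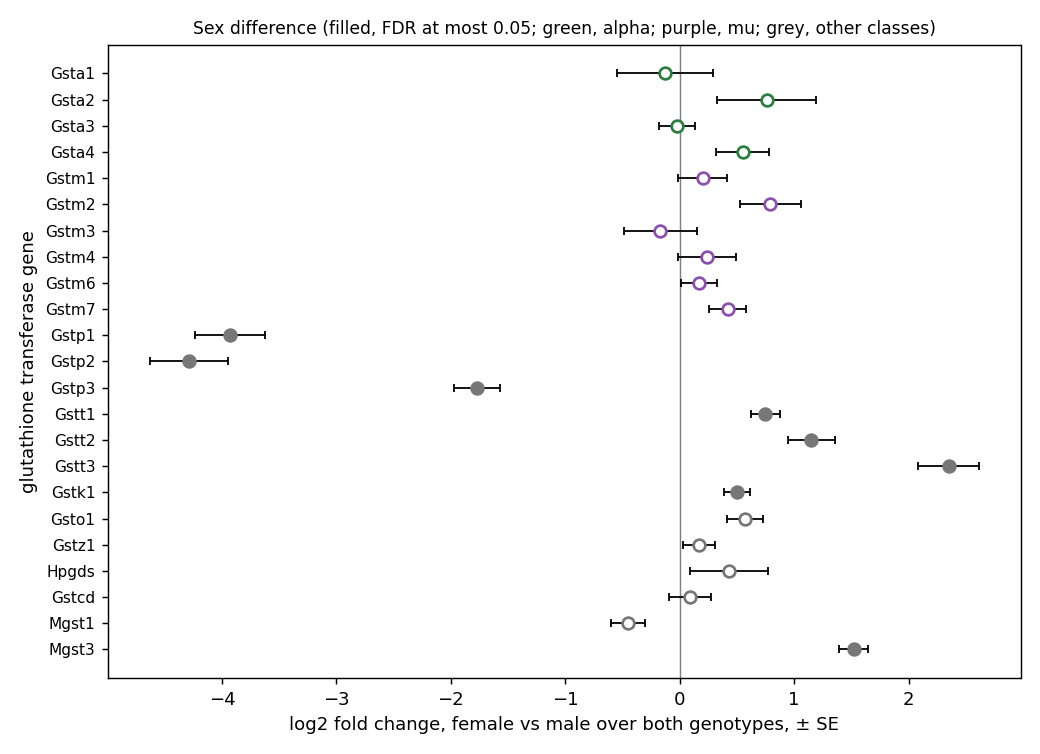
Log2 fold change of females against males (x axis, with SE as bars) for the 10 members and 13 transferases of other classes (y axis), filled where the FDR is at most 0.05. All members are open symbols between -0.17 and 0.79, while Gstp1 and Gstp2 lie at -3.93 and -4.29 and Gstt3 at 2.35, and Gstp3, at -1.77 over both genotypes, is higher in females within WT.

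Cell type markers and zonation genes were listed beside the sex comparison. The Kupffer cell and macrophage markers, most abundant Clec4f, summed to 149.8 and 233 CPM in the WT males, 266 and 196 in the NT-KO males, 292 and 308 in the WT females and 279 and 336 in the NT-KO females, and 8 of 8 were higher in females with 0 past the FDR (edgeR), 5 with an unadjusted p under 0.05. The endothelial markers, most abundant Clec4g, summed to 218 and 147 CPM in the WT males, 221 and 207 in the NT-KO males, 261 and 269 in the WT females and 230.3 and 258 in the NT-KO females, and likewise 8 of 8 were higher with 0 past the FDR and 5 with an unadjusted p under 0.05. The neutrophil and erythroid markers, whose sums are given above, were lower in females for 7 of 7 tested, and 2 passed, the heme synthesis gene Alas2 at -3.22 (FDR 0.000248, edgeR) and the globin gene Hbb-bt at -1.10 (FDR 0.0497, edgeR). Of the ER chaperones 19 of 19 were lower in females and 2 passed. Of the pericentral genes, which mark the hepatocytes around the central vein where glutathione transferases are known to be enriched, 1 of 12 passed, Lect2, with a log2 fold change of 0.70 (FDR 0.00974, edgeR). Females had the higher mean for 9 of these and the lower for 3 (median log2 fold change 0.27). An unadjusted p under 0.05 (edgeR) was found for 4 of them, beside 26.9% of all tested genes. For NT-KO 0 of 12 passed in either sex, and 8 of 12 were higher in males (median log2 fold change 0.05, 1 with an unadjusted p under 0.05) and 12 of 12 lower in females (median -0.23, 0 with one). Of the periportal genes 1 of 12 passed between the sexes, Ctsc, at 0.90 (FDR 0.0108, edgeR). In this list 7 genes were higher and 5 lower in females (median log2 fold change 0.10). The most abundant, Cps1, averaged 3750 CPM in the WT males, 3686 in the NT-KO males, 2493 in the WT females and 2825 in the NT-KO females. Of the 7 tested hepatocyte markers 0 passed the FDR in any comparison (edgeR, 1 with an unadjusted p under 0.05 in males, 0 in females, 4 between the sexes and 1 in the interaction), and 6 of 7 were lower in male NT-KO. Defining markers of exocrine pancreas and gut (Prss1, Cpa1, Pnlip, Amy2b and Alpi) were at 3 counts or fewer in every library. Of the other 3 genes of that list the fatty acid binding protein gene Fabp2, known from the gut, was the only one tested. It stood at 37 and 46.3 CPM in the WT males, 55.2 and 64.7 in the NT-KO males, 89.2 and 65.1 in the WT females and 75.6 and 64 in the NT-KO females, with log2 fold changes of 0.53 in males (FDR 0.393, edgeR) and 0.55 between the sexes (FDR 0.0576, edgeR). In whole tissue fewer cells of a type and less RNA per cell cannot be told apart, and the part of these markers in the values of the members was not tested.

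The pathway that feeds and follows the transferases was also examined. Of 22 tested genes for glutathione synthesis, recycling and conjugate export, 0 passed the FDR for NT-KO in males (3 with an unadjusted p under 0.05) or in females (0), by edgeR. The canalicular conjugate exporter Abcc2 had a log2 fold change of 0.58 ± 0.243 in males (FDR 0.421, edgeR). Between the sexes 1 gene fell in females, the aminopeptidase Lap3, with a log2 fold change of -0.64 (FDR 0.037, edgeR), and 0 rose. Gpx1, the glutathione peroxidase and the most abundant gene of this list, stood at 1687 and 1499 CPM in the WT males, 1994 and 1126 in the NT-KO males, 1613 and 1859 in the WT females and 1912 and 1833 in the NT-KO females.

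Of 28 tested regulators and targets of NRF2, 0 passed for NT-KO in males, where 22 were higher (median log2 fold change 0.28) and 7 had an unadjusted p under 0.05, or in females, where 18 were higher (median 0.07) and 0 had one. Of all tested genes 51.6% were higher and 11.5% had such a p in males, and 50.3% and 1.55% in females. Between the sexes 3 rose in females and 1 fell, beside 7.84% of all tested genes past the FDR. Nqo1, a quinone reductase often used as an NRF2 readout, stood at 2.95 and 1.75 CPM in the WT males, 3.95 and 6.21 in the NT-KO males, 9.29 and 13.7 in the WT females and 10.8 and 13.2 in the NT-KO females, a log2 fold change of 1.76 in females against males (FDR 0.00378, edgeR). The carbonyl reductase Cbr1 rose by 0.98, Cyp2a5 rose by 1.27 and the aldehyde oxidase Aox1 fell by 1.00 on the log2 scale (FDR 0.00292 to 0.0122, edgeR).

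Of 23 tested genes of CAR, PXR and AHR and their targets, 0 passed for NT-KO in males (2 with an unadjusted p under 0.05) or in females (0), by edgeR. Between the sexes 4 rose in females, the cytochrome P450 genes Cyp2b13, Cyp2b9, Cyp2b10 and Cyp2c37, and 0 fell. Cyp2b10, a classical CAR target, stood at 2.68 and 0.33 CPM in the WT males, 2.42 and 2.61 in the NT-KO males, 9.02 and 18.9 in the WT females and 17.4 and 15.5 in the NT-KO females, with a log2 fold change of 2.94 (FDR 0.0116, edgeR). Among liver genes listed for a known sex bias, 16 of 18 male-biased genes fell and 20 of 22 female-biased genes rose in females. In male NT-KO 14 of 18 male-biased genes were lower (median log2 fold change -0.52), 6 with an unadjusted p under 0.05. Of the female-biased genes 12 of 22 were lower there (median -0.15), 8 with such a p, beside 11.5% of all tested genes. In female NT-KO the medians were 0.17 and 0.05, with 2 such genes in each list. For NT-KO 0 passed the FDR in either list and sex (edgeR).

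Promoter sequence was searched for 3 motifs on both strands, in the 250 bases before each RefSeq start (GRCm38.p6), with 14 promoters of 9 members matched. The antioxidant response core TGACNNNGC was in promoters of Gsta3, as TGACATTGC 121 bases before the start, and of Gstm7, as TGACAAAGC 129 bases before it, while 10.2% of all 32851 promoters hold it. The AHR core GCGTG was in those of Gsta2 and Gstm1 (28.2% of all promoters), and the STAT5 motif TTCNNNGAA in those of Gsta1 and Gstm6 (7.02%). The matches of Gsta2, Gstm6 and Gstm7 lay before a RefSeq start inside the annotated gene, and those of Gstm6 and Gstm7 before 1 of 3 and 1 of 2 listed starts. The Gstm6 match lay after the start codon and first coding bases of that gene. The Gstm7 match lay ahead of its start codon, in a window that also holds its first coding bases. The antioxidant core can share its last 2 letters with the AHR core. Each motif was in promoters of 2 members, and a match describes letters, not a site in use.

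The members also differed in which of the others they followed. With log2 CPM centred on the mean of each sex, so that the sex difference drops out, Pearson's r over the 8 libraries was positive for 6 of 6 alpha pairs (median 0.79), 14 of 15 mu pairs (median 0.74) and 22 of 24 mixed pairs (median 0.39). Gsta2 and Gsta4 had the highest r, 0.96, though Gsta4 shares no 50-base stretch with another gene. Gstm1 followed these alpha genes, with r of 0.90 to Gsta2 and 0.88 to Gsta4, and had r of only -0.14 to 0.40 to the other 5 mu members. Gstm2, Gstm4, Gstm6 and Gstm7 had r of 0.80 to 0.93 to one another. These values describe 8 libraries that share their genotype groups, normalization and the replicate differences given above, and carry no test.

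**Figure D5:**
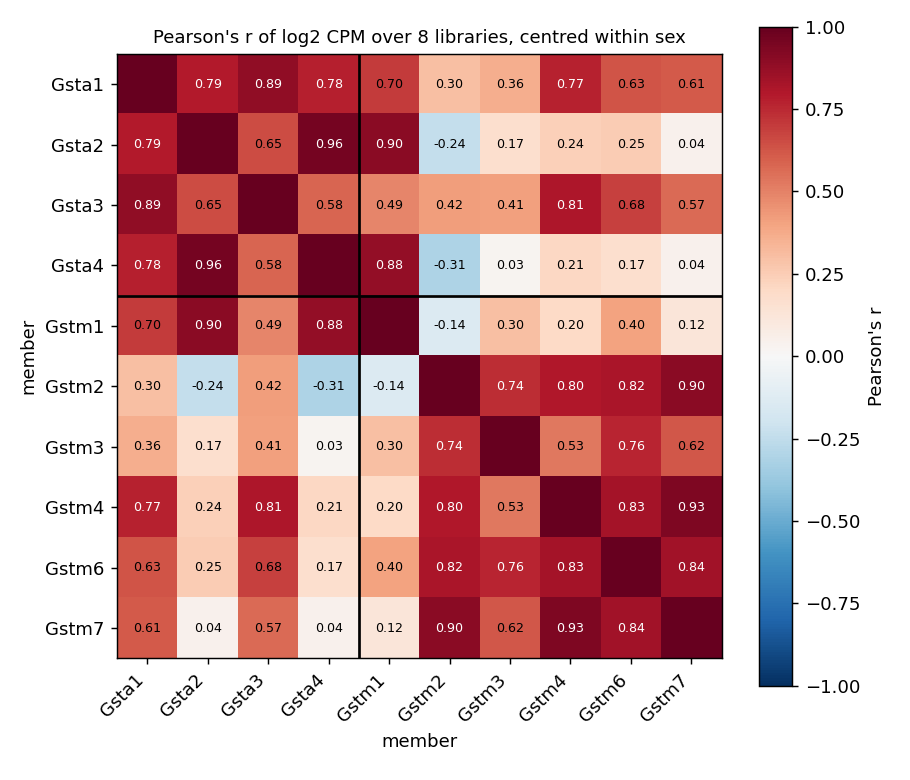
Pearson's r between members (both axes) over 8 libraries, on log2 CPM centred within each sex, with black lines between the alpha and mu classes. The block of Gstm2, Gstm4, Gstm6 and Gstm7 is red (0.80 to 0.93), and the row of Gstm1 is red towards Gsta2 and Gsta4 (0.90 and 0.88).

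The genes most like the mean of the alpha members on this measure, outside the transferases, were the aldo-keto reductase Akr1c19 (r = 0.989), the phosphoglucomutase Pgm1 (0.988), the histidine ammonia-lyase Hal (0.987), the adhesion molecule Cadm1 (0.986) and Selenoo (0.985), over 8 libraries. For the mu members they were Iqcg (0.983), Fam53b (0.978), Iqsec2 (0.974), the aminotransferase Agxt2 (0.968) and Ddah1 (0.959). They are the top 5 of all tested genes for each class, picked for this value, and carry no test.

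Other alpha and mu entries were also listed. Of 7, 5 were in the table and 4 were tested (Gstm5, Gm3776, Gm10639 and Gstm2-ps1), and 0 passed the FDR in any comparison (edgeR, 0 with an unadjusted p under 0.05). Gm3776, which holds 75.7% of the 50-base stretches of Gsta1, stood at 0.865 and 0.448 CPM in the WT males, 1.71 and 2.4 in the NT-KO males, 0.128 and 0.911 in the WT females and 0.808 and 1.27 in the NT-KO females. With Gsta1, Gsta2, Gm3776 and Gm10639 added together, a sum chosen after the shared stretches had been counted, the log2 fold change was 0.88 ± 0.579 in males (FDR 0.604, edgeR) and 0.48 ± 0.573 in females (FDR 1, edgeR).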

How the data were processed

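Liver RNA was extracted with Trizol and sequenced from TruSeq libraries, per the labels. The authors trimmed reads with cutadapt, aligned them with STAR 2.6.1a to GRCm38 and counted reads per gene with featureCounts, and the deposited values are whole-number counts without normalization. Their gene annotation was that of Ensembl for GRCm38. The strand and multi-mapping settings are not given in the sources used here. Of 49671 gene IDs, 49412 matched GENCODE M21. All columns were mapped by label, and 0 were left unused.

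Genes reaching 1 CPM in 2 or more libraries were tested, without rRNA, miRNA and mitochondrial genes (13117, holding 91.8% to 92.9% of counts). All 8 libraries entered one edgeR 4.0.16 fit (R 4.3.3, limma 3.58.1) with TMM and a mean per group, without a block. The SE is the size of the log2 fold change divided by the square root of F, and 95% intervals are t quantiles at edgeR's degrees of freedom times the SE. Log2 CPM used a prior count of 2. With 2 libraries a group, no exact test within a sex can reach p of 0.05, so exact permutation tests were run only for 4 against 4 libraries, two-sided, for 10 members without adjustment.

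On simulated counts for 13117 genes (males, 200 changed), the quasi-likelihood test recovered 95% of 4-fold and 35% of 2-fold changes. Of its 136 calls 6 were unchanged genes, against 31 of 187 for the likelihood ratio test and 27 of 190 for DESeq2. The changed genes were drawn only from those above a set mean level, which Gsta1 did not reach, so the recovery does not cover Gsta1. Alternatives were the likelihood ratio test, DESeq2 1.42.0, RLE, library size only, other filters, a replicate block, summed near-identical genes, 1 sex alone, 1 genotype alone, other lengths and each library left out. The members and lists were chosen with earlier results of these data known. Named genes are all members, the label checks, listed transferases, up to 5 genes per list and comparison past the FDR or else up to 3 of the highest mean, and the 5 most alike per class. The library sums of the ER chaperone and blood lists were singled out after they had been seen. The result of 1 marker list is not reported here.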

Additional observations from a re-analysis of the deposited data

How the results depend on the processing

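The count of members past the FDR was 0 in every comparison of the quasi-likelihood fit and stayed at 0 in the female comparison and in the interaction under every alternative run. It became 2 in the male comparison (Gsta1 and Gsta2) and 3 between the sexes (Gstm2, Gsta2 and Gsta4) with no filter beyond 1 count, and 1 between the sexes with the likelihood ratio test and with DESeq2 (Gstm2 both times). With 1 library left out it ran from 0 to 2 between the sexes, the 2 being Gstm2 and Gstm7 without male NT-KO replicate 2, and was 0 elsewhere. The causes were not tested, and the shares of all genes called under these alternatives are not given here.

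Samples of the same replicate number did not deviate together (r of -0.01 in males and 0.02 in females), so the numbers do not pair them. A fit with the replicate number as a block called 1 member between the sexes, Gsta4 (0.58, FDR 0.0333), and gave -0.05 for Gstm2 in males and 0.02 for Gstm3 in females.

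Some values changed sign, among them the estimates of Gstm3 and Gstm4 in males and of Gsta1 and Gstm3 in the interaction. Between the sexes, Gsta1 was 0.16 and Gsta3 0.03 within WT, Gstm3 was 0.10 within NT-KO, Gsta3 was 0.11 with library size only, and Gsta1 became 0.69 when summed with Gsta2 and 0.64 when summed also with Gm3776 and Gm10639. The other sign changes came from leaving out 1 library, with these ranges of log2 fold change. In the male comparison, Gstm1 ran from -0.06 to 0.70, Gstm2 from -0.74 to 0.61, Gstm3 from -1.09 to 0.22, Gstm4 from -0.11 to 1.04, Gstm6 from -0.13 to 0.35 and Gstm7 from -0.16 to 0.52. In the female comparison, Gsta2 ran from -0.13 to 1.41, Gsta3 from -0.09 to 0.34, Gstm1 from -0.26 to 0.25, Gstm2 from -0.22 to 0.10, Gstm3 from -0.37 to 0.42, Gstm4 from -0.07 to 0.52, Gstm6 from -0.32 to 0.07 and Gstm7 from -0.004 to 0.12. Between the sexes, Gsta1 ran from -0.63 to 0.38, Gsta3 from -0.13 to 0.08 and Gstm3 from -0.42 to 0.22. For the interaction, Gsta1 ran from -1.62 to 0.40, Gsta2 from -1.15 to 0.60, Gsta3 from -0.30 to 0.12, Gsta4 from -0.70 to 0.16, Gstm1 from -0.72 to 0.03, Gstm2 from -0.67 to 0.68, Gstm3 from -0.24 to 1.07, Gstm4 from -0.84 to 0.32 and Gstm7 from -0.46 to 0.23.

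The summed CPM per kb of the alpha class was 597.6, 717.3, 646.6 and 719 in the WT males, NT-KO males, WT females and NT-KO females with the longest transcript as length, and 1094, 1293, 1154 and 1267 with the principal transcript, a length chosen after seeing the data. For the mu class it was 1057 and 1128 in male NT-KO and female NT-KO with the longest transcript, 1058 and 1129 with the principal transcript, and 989 in female NT-KO with library size only. With 2 libraries a group, the SE of 0.223 to 0.611 in males and females limit what could be detected, and Gsta1, at 0.59 to 3.43 CPM, has the least depth.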

Other observations

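Markers and clock genes not set beside a comparison above, other than the marker list not reported here, gave the following values. Of 13 tested circadian genes, 0 passed the FDR for NT-KO in either sex (edgeR). In males 7 had an unadjusted p under 0.05, beside 11.5% of all tested genes, and 7 were higher and 6 lower in NT-KO. In females 0 had such a p, beside 1.55% of all tested genes. Per3 rose by 0.82 in females against males, while Clock and Arntl fell, with log2 fold changes of -0.90 and -1.70. Arntl, a core activator of the clock, stood at 4.16 and 4.11 CPM in the WT males, 1.91 and 1.33 in the NT-KO males, 0.622 and 0.544 in the WT females and 1.53 and 0.673 in the NT-KO females. Dbp, a clock output gene, stood at 28.4 and 30.8 CPM in the WT males and 64.8 and 50.3 in the NT-KO males. Its values were 64.5 and 69.8 in the WT females and 43.6 and 69.6 in the NT-KO females. The part of the clock genes in the values of the members was not tested. Of 6 tested cholangiocyte markers Epcam passed between the sexes (1.12, FDR 0.0377, edgeR). Of 8 stellate cell and fibroblast markers 0 passed in any comparison, with 0 at an unadjusted p under 0.05 (edgeR), and their sum was 241 to 323 CPM.

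The aldo-keto reductase gene Akr1c19, most like the alpha members within sexes, stood at 119.8 and 70.9 CPM in the WT males, 159 and 143 in the NT-KO males, 47.6 and 86.8 in the WT females and 78.9 and 116 in the NT-KO females.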
